A study of Mus musculus with 6 samples.

Results

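Fibroblast and tendon cell markers were read in RNA-seq of freshly isolated muscle stem cells (MuSCs), the PAX7-positive cells that lie between the myofiber and its basal lamina. The set holds 10 of the 25166 genes of the deposited table: Pdgfra, Clec3b, Pi16, Dpt, Mfap5, Scx, Mkx, Tnmd, Thbs4 and Chodl. Clec3b was chosen because it was higher in Sirt6mKO than in Ctrl libraries in this same table, so its difference is described here without a test. The other 9 genes were chosen as known markers. Both groups hold 3 libraries of MuSCs from 12-week-old male C57BL/6 mice. Sirt6mKO mice carry Pax7-ICNCre and 2 floxed alleles of Sirt6, so that Cre made by Pax7-expressing cells removes exons 4 to 6 of this histone deacetylase gene in the whole Pax7 lineage, myofibers included. The Ctrl libraries are called wild type in the labels, whereas the supplementary legend describes Cre-negative mice with the same floxed alleles. No agent was given to either group.

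The sort bears directly on these genes. Cells were first depleted of SCA1-, CD45- and CD31-positive cells with beads and then sorted for integrin alpha 7 and CD34, or for a fluorescent reporter of the lineage. Which of these sorts was used for the libraries is not given in the sources used here. Each library was made from 100 to 200 sorted cells, and nothing ties a library to a single animal, so that p-values measure the spread between these libraries. In such bulk samples, fewer cells of a type and less RNA per cell cannot be told apart.

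Fibroblasts of skeletal muscle, also called fibro-adipogenic progenitors, lie between the myofibers, carry the receptor PDGFRA and SCA1 (gene Ly6a) and make much of the interstitial collagen. A fraction of them in the outer connective tissue is known for Pi16, Clec3b and Mfap5. Tendon cells, or tenocytes, are set up by the transcription factors SCX and MKX and make the proteins that order collagen fibrils at the muscle end, among them tenomodulin, thrombospondin 4, fibromodulin and keratocan. Several of the same matrix genes are also used by MuSCs, which build part of their own niche.

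The deposited values are whole numbers obtained by dividing the reads of a gene by 1 size factor per library, and are called signal here. Between 1267947 and 3211528 gene reads per library lie behind them, the fewest in Ctrl replicate 3 and the most in Ctrl replicate 2, and 1 read is worth a signal of 0.729 to 1.792. The MuSC genes Vcam1 and Cdh15 had signals of 1352 to 2264 over the 6 libraries, and Pax7 had 1810 to 2307 in Sirt6mKO and, without overlap, 3150 to 4066 in Ctrl. For Sirt6 itself, Sirt6mKO replicates 1, 2 and 3 read 19, 20 and 13, against 18, 17 and 20 in the controls. This overlap does not check the labels, since reads of the remaining exons were counted for the gene too. SCA1 was almost unread, with Ly6a signals of 0 to 2 in every library.

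The tendon genes Thbs4 and Tnmd were both high in Sirt6mKO replicates 2 and 3, and Chodl stayed within a narrow range. The promoters of these genes are shown first. Each is the stretch of 250 bases before the RefSeq start (build GRCm38.p6), written 5′ to 3′ on the strand of the gene, with each match to CANNTG in capitals. CANNTG is the E-box, the letters read by basic helix-loop-helix factors such as SCX, and reads the same on both strands.
Thbs4, chr13:92794819-92795068, minus strand: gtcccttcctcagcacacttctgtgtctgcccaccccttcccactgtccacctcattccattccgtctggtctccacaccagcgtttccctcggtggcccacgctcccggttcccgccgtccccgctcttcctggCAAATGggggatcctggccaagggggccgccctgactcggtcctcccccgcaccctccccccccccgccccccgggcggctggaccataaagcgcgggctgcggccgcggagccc
Tnmd, chrX:133850758-133851007, plus strand: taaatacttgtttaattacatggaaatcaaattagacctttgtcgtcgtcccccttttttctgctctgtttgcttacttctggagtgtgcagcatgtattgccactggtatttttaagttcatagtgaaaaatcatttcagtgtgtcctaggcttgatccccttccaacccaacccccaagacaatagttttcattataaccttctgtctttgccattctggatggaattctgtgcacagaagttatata
Chodl, chr16:78930698-78930947, plus strand: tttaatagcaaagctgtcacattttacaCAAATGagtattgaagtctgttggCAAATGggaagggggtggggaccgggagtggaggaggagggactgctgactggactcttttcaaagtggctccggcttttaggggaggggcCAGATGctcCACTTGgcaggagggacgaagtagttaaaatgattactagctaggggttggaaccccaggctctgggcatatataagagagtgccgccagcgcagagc
CANNTG occurs at least 1 time in 66.2% of all 32851 promoters of this length, and 4 or more times in 3.8%. The window of Chodl held 4 matches and that of Thbs4 held 1. The window of Tnmd held 0, which says only that these letters are not in this stretch. Of the 10 markers, 6 had a promoter in the table used. Among the others with one, Dpt had 6 matches, Pdgfra had 1 and Pi16 had 0.

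The markers did not behave as 1 group of genes. Dpt and Chodl were among the most abundant transcripts of every library, Clec3b and Pdgfra were higher in all 3 Sirt6mKO libraries, Thbs4 and Tnmd were high in Sirt6mKO replicates 2 and 3 and at the control level in replicate 1, and Pi16 and Mfap5 were close to unread throughout. Of the 10 genes, 8 had a mean signal of at least 5 and entered the fit of log2(signal + 1) with limma-trend over 14227 genes. A gene was called when its p, adjusted by Benjamini and Hochberg over all tested genes, was 0.05 or less and it changed 2-fold or more. Leaving Clec3b aside, which was chosen on this contrast, 1 of the 7 other tested markers, Pdgfra, was called higher and none lower by limma-trend, against 1.57% of all tested genes called higher and 1.02% called lower. The median log2 fold change of these 7 was 0.43, against 0.0019 over all tested genes. Tnmd, at 2.71, is among the 7 and passed the filter only through its Sirt6mKO libraries, so that this median is a description only.

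**Figure D1:**
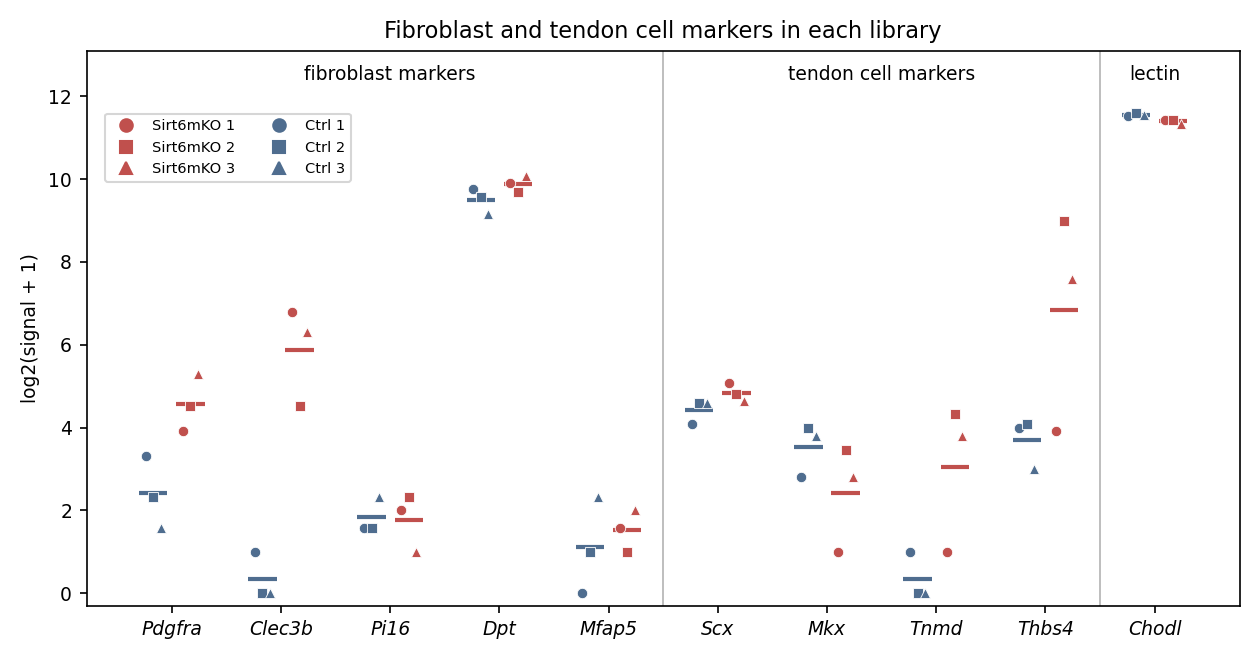
Signal of each marker in the 6 libraries, as log2(signal + 1); circles, squares and triangles are replicates 1, 2 and 3, red for Sirt6mKO and blue for Ctrl, and bars are group means. Dpt and Chodl lie near 10 to 12 in every library, Clec3b is at or next to 0 in the controls only, and the Thbs4 and Tnmd points of Sirt6mKO replicate 1 lie among the controls.

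Pdgfra (chr5:75152292-75198215, GRCm38, plus strand) encodes the receptor of platelet-derived growth factors that defines muscle fibroblasts. Its signals were 14, 22 and 38 in replicates 1, 2 and 3 of Sirt6mKO, against 9, 4 and 2 in those of Ctrl, an order of replicates used for all genes here. All Sirt6mKO libraries lay above all controls, the closest being Sirt6mKO replicate 1 and Ctrl replicate 1. The means were 24.7 ± 12.2 and 5.00 ± 3.61 (SD, n = 3), and Pdgfra rose by a log2 fold change of 2.16 ± 0.50 (SE, limma-trend, adjusted p = 0.027, 95% interval 1.09 to 3.24). These are low levels, with 87 reads over the 3 Sirt6mKO libraries. The call depended on single libraries. It was lost without Sirt6mKO replicate 1 (2.49, adjusted p = 0.061), replicate 2 (2.19, 0.13) or replicate 3 (1.81, 0.13) and without Ctrl replicate 2 (2.12, 0.081) or replicate 3 (1.75, 0.066), and held without Ctrl replicate 1 (2.62, 0.011). Exons of Pdgfra overlap 2 predicted genes on the other strand and a microRNA gene, and whether strand was used in counting is not given in the sources used here.

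The partners of this receptor were read too. Pdgfrb, the sister receptor known from mural cells, had signals of 11, 28 and 12 in Sirt6mKO and 11, 20 and 14 in Ctrl, and the groups overlapped. The ligand Pdgfa had 64, 89 and 109 against 111, 117 and 99. Pdgfc, a ligand of PDGFRA, had 2, 4 and 3 against 9, 20 and 9, with no overlap and a log2 fold change of -1.71 ± 0.47 (SE, limma-trend, adjusted p = 0.062). None of the 5 tested genes of this family other than Pdgfra passed both thresholds, against 1.57% (higher) and 1.02% (lower) of all tested genes.

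Clec3b (chr9:123150946-123157432, plus strand) encodes tetranectin, a secreted C-type lectin that binds plasminogen and is known from fibroblasts of the outer connective tissue. Its signals were 109, 22 and 78 in Sirt6mKO and 1, 0 and 0 in Ctrl. The controls were at or under the level of 3 reads, so that the mean of the Sirt6mKO libraries, 69.7 ± 44.1 (SD, n = 3), was at least 18.6-fold higher than that floor. With 244 reads over 3 libraries, Clec3b was well above the limit of reading in each of them. Sirt6mKO replicate 2 was the lowest of the 3, at 0.285 of replicate 3 (95% interval 0.181 to 0.438, exact binomial, counting error only). No other gene overlaps Clec3b in the annotation.

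The 2 genes usually found with Clec3b in these fibroblasts did not follow it. Pi16 (chr17:29317680-29330593, plus strand), which encodes a secreted peptidase inhibitor, had signals of 3, 4 and 1 in Sirt6mKO and 2, 2 and 4 in Ctrl. Mfap5 (chr6:122505845-122529290, plus strand), a glycoprotein of elastic microfibrils, had 2, 1 and 3 against 0, 1 and 4. Both lie within a few reads of 0 in every library, and a difference was not detectable at this depth. Neither was tested, since their mean signals were under 5. Dpp4 and Sema3c, known from the same fibroblasts, reached 3 and 10 at most.

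Dpt (chr1:164796644-164824266, plus strand) encodes dermatopontin, a small matrix protein that binds decorin and speeds up the assembly of collagen fibrils. Its signals were 960, 820 and 1074 in Sirt6mKO and 866, 755 and 572 in Ctrl. The groups overlapped, as Ctrl replicate 1 lay above Sirt6mKO replicate 2. The means of 951 ± 127 and 731 ± 148 (SD, n = 3) gave a log2 fold change of 0.39 ± 0.15 (SE, limma-trend, adjusted p = 0.19, 95% interval 0.06 to 0.72). Per kilobase of exon, the mean signal of Dpt in the controls, 424, was close to those of the MuSC genes Myf5 (463) and Cdh15 (461), unlike that of Pdgfra (0.499).

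Scx (chr15:76457452-76459458, plus strand) encodes scleraxis, the helix-loop-helix factor of tendon progenitors. Its signals were 33, 27 and 24 in Sirt6mKO and 16, 23 and 23 in Ctrl, so that the lowest Sirt6mKO library lay 1 unit above the highest controls. Scx lies inside the gene Bop1 with no shared exon. The log2 fold change was 0.43 ± 0.27 (SE, limma-trend, adjusted p = 0.45, 95% interval -0.16 to 1.01). Without Clec3b, every Sirt6mKO library lay above every Ctrl library for 2 of the 7 tested markers, Pdgfra and Scx, and for 11.1% of all tested genes.

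Mkx, on the minus strand of chromosome 18, encodes mohawk, a homeodomain factor needed for the collagen of mature tendon. Its signals were 1, 10 and 6 in Sirt6mKO and 6, 15 and 13 in Ctrl. The groups overlapped, and the means of 5.67 ± 4.51 and 11.3 ± 4.73 (SD, n = 3) gave a log2 fold change of -1.12 ± 0.61 (SE, limma-trend, adjusted p = 0.37, 95% interval -2.43 to 0.20). The estimate was negative in all 16 alternative fits, from -1.63 to -0.40. Neither of the tendon transcription factors was called in either direction.

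Thbs4 (chr13:92751590-92794818, minus strand) encodes thrombospondin 4, a pentamer of the matrix at the junction of muscle and tendon. Its signals were 14, 508 and 191 in Sirt6mKO and 15, 16 and 7 in Ctrl. Sirt6mKO replicates 2 and 3 were 40.1 and 15.1 times the control mean of 12.7 ± 4.93 (SD, n = 3), and replicate 1 was 1.11 times it, below 2 of the controls. The fit gave a log2 fold change of 3.13 ± 0.90 (SE, limma-trend, adjusted p = 0.075, 95% interval 1.17 to 5.09), which did not pass. Without Sirt6mKO replicate 1 it was 4.59 (adjusted p = 0.0022), and without replicate 2 it was 2.05 (adjusted p = 0.30). Over all 16 alternatives the adjusted p ran from 0.0022 to 0.40.

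Tnmd (chrX:133850980-133865577, plus strand) encodes tenomodulin, a membrane protein found mainly in tendon and ligament. Its signals were 1, 19 and 13 in Sirt6mKO and 1, 0 and 0 in Ctrl. Replicates 2 and 3 were the high libraries for Tnmd as well, and replicate 1 equalled the highest control. With the controls at or under 3 reads, the Sirt6mKO mean of 11.0 ± 9.17 (SD, n = 3) was at least 2.93-fold above the floor. Tnmd passed the filter only through its Sirt6mKO libraries, so that its fit (limma-trend adjusted p = 0.095) is no support for a direction, and without Sirt6mKO replicate 2 or 3 it was not tested. Without Sirt6mKO replicate 1 the adjusted p was 0.027. The 40 reads over the Sirt6mKO libraries set the precision of Tnmd. Its paralog Cnmd, chondromodulin of cartilage, had signals of 0 or 1 in every library.

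Chodl (chr16:78930948-78951733, plus strand) encodes chondrolectin, a membrane C-type lectin known from quiescent MuSCs and motor neurons. Its signals were 2757, 2759 and 2579 in Sirt6mKO and 2949, 3076 and 2994 in Ctrl. Each Sirt6mKO library lay below each control, as did 10.1% of all tested genes, and Chodl was the single one of the 8 markers with that order. The means of 2698 ± 103 and 3006 ± 64.4 (SD, n = 3) differed by a log2 fold change of -0.16 ± 0.10 (SE, limma-trend, adjusted p = 0.48, 95% interval -0.38 to 0.07). At such a level a change of 2-fold lies far outside the interval. Chodl and Dpt were both high in the libraries with a high Thbs4 signal and in those without.

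Levels can be compared between genes only per length of exon. Per kilobase, Chodl (548 ± 11.7) and Dpt (424 ± 86.1) led in the controls (mean signal per kilobase ± SD, n = 3), and held ranks 62 and 92 among the 14227 tested genes. Scx followed with 10.3 ± 2.01, Thbs4 with 3.85 ± 1.50 and Mkx with 2.77 ± 1.15, and Thbs4 and Mkx overlapped. Pdgfra (0.499 ± 0.360), Mfap5 (0.464 ± 0.580), Pi16 (0.419 ± 0.181), Clec3b (0.336 ± 0.582) and Tnmd (0.246 ± 0.427) overlapped at the bottom. In Sirt6mKO, Dpt (552 ± 73.8) and Chodl (491 ± 18.8) came first, with Chodl inside the SD of Dpt. Thbs4 (72.3 ± 76.1) and Clec3b (70.2 ± 44.5) came next and overlapped, followed by Scx (14.0 ± 2.28), Tnmd (8.13 ± 6.77), Pdgfra (2.46 ± 1.22) and Mkx (1.38 ± 1.10). Clec3b went from rank 14179 in the controls to rank 1345, and Thbs4 from 12040 to 1289. Thbs4 in Sirt6mKO, with an SD above its mean, also overlapped Scx, Tnmd, Pdgfra and Mkx, so that its place in that order is not set. Tnmd overlapped Scx, Pdgfra and Mkx, and Pdgfra overlapped Mkx.

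The markers also differed in how much they varied between libraries of 1 group. Over all tested genes, the median SD of log2(signal + 1) was 0.20 among the Sirt6mKO libraries and 0.25 among the controls. Thbs4 had an SD of 2.63 among Sirt6mKO libraries, which is rank 6 of 14227, and Tnmd had 1.79, rank 21. Mkx (1.27, rank 70) and Clec3b (1.19, rank 98) were also far up, and Pdgfra had 0.69. In the controls Thbs4 had an SD of 0.60. Of the 20 genes with the largest spread among Sirt6mKO libraries, 7 were Thbs4 or genes of the tendon list below. The list gave 12 of the 14227 tested genes. Among the 7, Kera, Chad, Col11a1 and Comp passed the filter only through their Sirt6mKO libraries, as did Tnmd at rank 21. The ranks of these genes are thus no support.

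That list holds 14 further tendon genes, of which 12 were tested. Of these, 5 (Kera, Comp, Chad, Col11a1 and Col14a1) had a control mean under 5 and entered the test only through the Sirt6mKO libraries, so that their direction was set by the filter. The 7 others all had a log2 fold change above 0, as had 7173 of all 14227 tested genes, with a median of 0.98. Of these 7, 1 (Cilp) was called higher, against 1.57% of all tested genes. Cilp, cartilage intermediate layer protein, had signals of 10, 160 and 84 in Sirt6mKO and 6, 7 and 4 in Ctrl (log2 fold change 3.02 ± 0.72 SE, limma-trend, adjusted p = 0.033). The call was lost without any 1 of Sirt6mKO replicates 2 and 3 and of the controls (adjusted p from 0.068 to 0.19), and held without Sirt6mKO replicate 1 (4.16, adjusted p = 0.0022). Col12a1, the fibril-associated collagen XII and the most abundant of the list, had 235, 404 and 282 against 203, 164 and 104, and passed the adjusted p alone (0.98 ± 0.23, adjusted p = 0.033), as 2.64% of all tested genes did upward and 1.88% downward. Without Sirt6mKO replicate 1 the calls in the list went from 1 to 5 (Cilp, Col11a1, Fmod, Kera and Tnc), and without replicate 2 or 3 to 0. Of these 5, Col11a1 and Kera had their direction set by the filter, so that their calls are no support. Over all genes, those called higher went from 223 to 92, 88 and 150 without Sirt6mKO replicates 1, 2 and 3.

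The highest library of the tendon genes was the same almost throughout. Fmod, which encodes fibromodulin, the keratan sulfate proteoglycan that binds collagen I, had signals of 11, 481 and 163 in Sirt6mKO and 11, 17 and 7 in Ctrl. Kera, keratocan, had 0, 40 and 15 against 1, 0 and 0. Tnc, tenascin C, had 8, 89 and 39 against 7, 10 and 9. Sirt6mKO replicate 2 held the highest Sirt6mKO value of 11 of the 12 tested genes and replicate 1 the lowest of 11. In replicate 1, 7 of the 12 were at or under the highest control. Kera, Comp, Chad, Col11a1 and Col14a1 are among the 12, so that their order is no support. In the fibroblast list below, replicate 2 was highest for 11 of 22 tested genes and replicate 1 lowest for 14. The share over all tested genes was not counted. The list summed to 312, 1389 and 681 in Sirt6mKO, against 269, 237 and 162 in the controls.

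**Figure D2:**
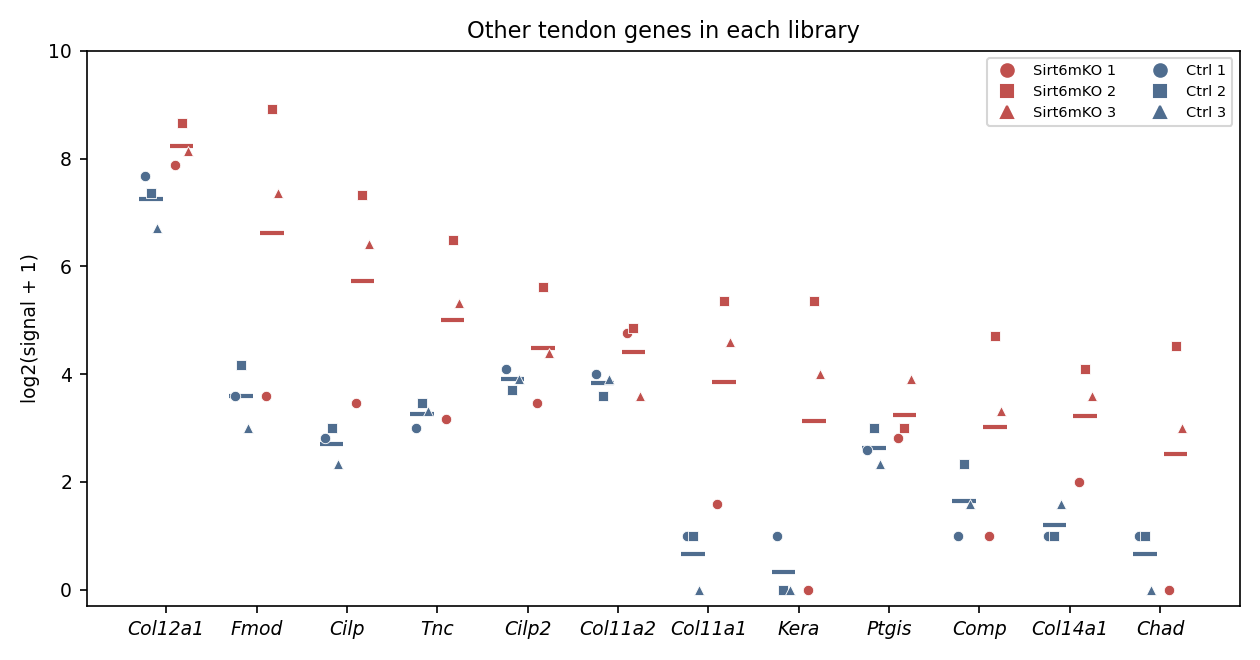
Signal of the 12 tested genes of the tendon list in each library, as log2(signal + 1), the most abundant at the left; symbols are replicates 1 to 3, red for Sirt6mKO and blue for Ctrl, and bars are group means. The red squares (Sirt6mKO replicate 2) are highest for 11 of 12 genes, and the red circles (replicate 1) lie among or near the blue points. Kera, Comp, Chad, Col11a1 and Col14a1 were tested only because of their Sirt6mKO values.

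The ratio between the 2 high libraries was above 1 for Thbs4, Fmod, Tnc, Cilp and Tnmd. Sirt6mKO replicate 2 over replicate 3 was 2.66 for Thbs4 (95% interval 2.27 to 3.13), 2.96 for Fmod (2.50 to 3.52), 2.29 for Tnc (1.59 to 3.35), 1.91 for Cilp (1.48 to 2.47) and 1.41 for Tnmd (0.705 to 2.93). The interval of Tnmd includes 1. Ptgis, also of the tendon list, went the other way, at 0.473 (0.183 to 1.15). These exact binomial intervals cover counting error only, as reads without molecular identifiers are not independent molecules. For Clec3b the ratio was 0.285, for Pdgfra 0.592 (0.356 to 0.974) and for Dpt 0.764 (0.703 to 0.831), below 1 in each case. For Scx it was 1.14 (0.663 to 1.97), and for Chodl 1.07 (1.02 to 1.12).

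Clec3b thus had another order of libraries than the tendon genes, with replicate 1 highest and replicate 2 lowest. Pdgfra had yet another order, with replicate 3 highest and replicate 1 lowest. Thbs4 and Clec3b were both high in replicate 3, and each was high in a further library in which the other was low or lower.

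Across all 6 libraries, the genes most like each marker were named by Pearson's r of log2(signal + 1), as a description over 6 points that share depth and group. For Thbs4 these were Fmod (r = 0.997), Cilp (0.992), Col11a1 (0.989), Kera (0.982) and Chad (0.979), all of them in the tendon list. For Tnmd they were Col11a1 (0.983), Tbr1 (0.982), 9130008F23Rik (0.982), Miip (0.981) and Cilp (0.979). Tnmd, Col11a1, Kera and Chad passed the filter only through their Sirt6mKO libraries, so that their likeness is no support. For Clec3b the genes most like it were Myf6 (0.996), Efna1 (0.996), Tmem45a (0.996), Gm49705 (0.993) and Zfp518a (0.990), none of them in the fibroblast list. For Pdgfra they were Ttc21b (0.996), Gypc (0.996), Gm8288 (0.993), Prrx1 (0.991) and Yme1l1 (0.990). With 6 libraries such values are common: 118 genes had an r over 0.95 with Clec3b, 85 with Pdgfra, 45 with Tnmd and 28 with Thbs4. For Dpt they were Chsy3 (0.998), Aasdhppt, Gm43737, Uqcrh and Rad54b (0.987), and for Scx Bloc1s4 (0.982), Fam174c, Far1, Zfp780b and Habp4 (0.975). For Mkx they were Dcaf5 (0.991), Gm44550, Mindy1, Mapk1ip1l and Hip1r (0.972), and for Chodl Coq2 (0.996), Fam118b, Rtkn, Ppdpf and Ttyh1 (0.988). None of these 20 was in the tendon or the fibroblast list.

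A list of 28 further fibroblast genes was read beside Pdgfra and Clec3b, and 22 of its genes were tested. Of these, 3 were called higher (Col1a1, Col1a2 and Cxcl14) and 1 lower (Thy1), against 1.57% and 1.02% of all tested genes. Of the 22, 13 were above and 9 below 0, and 7173 of all 14227 tested genes were above 0. The median log2 fold change of the 22 was 0.43. Smoc2, with a control mean of 4.67, passed the filter only through its Sirt6mKO libraries, so that its direction (1.84) was set by the filter. Col1a2, the second chain of collagen I, had signals of 782, 1299 and 1162 in Sirt6mKO and 173, 63 and 65 in Ctrl, with no overlap (3.55 ± 0.31 SE, limma-trend, adjusted p = 8.5e-05). Col1a1, the first chain, had 420, 1063 and 645 against 487, 128 and 81. Ctrl replicate 1 lay above a Sirt6mKO library for Col1a1 (1.94 ± 0.50, adjusted p = 0.047), and this call held only without that control (2.69, 7e-04) and was lost without any of the other 5 libraries (adjusted p from 0.10 to 0.23). Cxcl14, a chemokine, had 70, 42 and 32 against 10, 12 and 0 (3.15 ± 0.76, adjusted p = 0.034), and its call was lost without Sirt6mKO replicate 1, 2 or 3 (adjusted p = 0.21, 0.14 and 0.067) and held without single controls. Thy1, the surface antigen CD90 of fibroblasts, fell from 155, 187 and 169 in Ctrl to 44, 37 and 24 in Sirt6mKO (-2.29 ± 0.21, adjusted p = 9.9e-05). Mmp2 passed the adjusted p alone, downward (-0.84 ± 0.12, adjusted p = 0.0017).

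The 3 most abundant genes of this list resembled Dpt. Col3a1, collagen III, had signals of 5795 to 8595 over the 6 libraries, Gsn, gelsolin, of 2312 to 3375, and Fbn1, fibrillin 1, of 1871 to 2744. Their groups overlapped, with adjusted p of 0.90, 0.29 and 0.82 by limma-trend. Ctrl replicate 1 was the highest control for Pdgfra, Dcn, Lum, Fbln1, Col1a1 and Col1a2, and for 11 of the 22 tested genes in all. Some genes of the list were near 0 in every library, among them Ly6a at 0 to 2, Dpp4 at 0 to 3 and Osr1 at 0 to 2. SCA1-positive cells had been depleted before the sort. The 22 tested genes, among them Dcn (26 to 167) and Fbln2 (118 to 330), had a mean signal of at least 5.

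**Figure D3:**
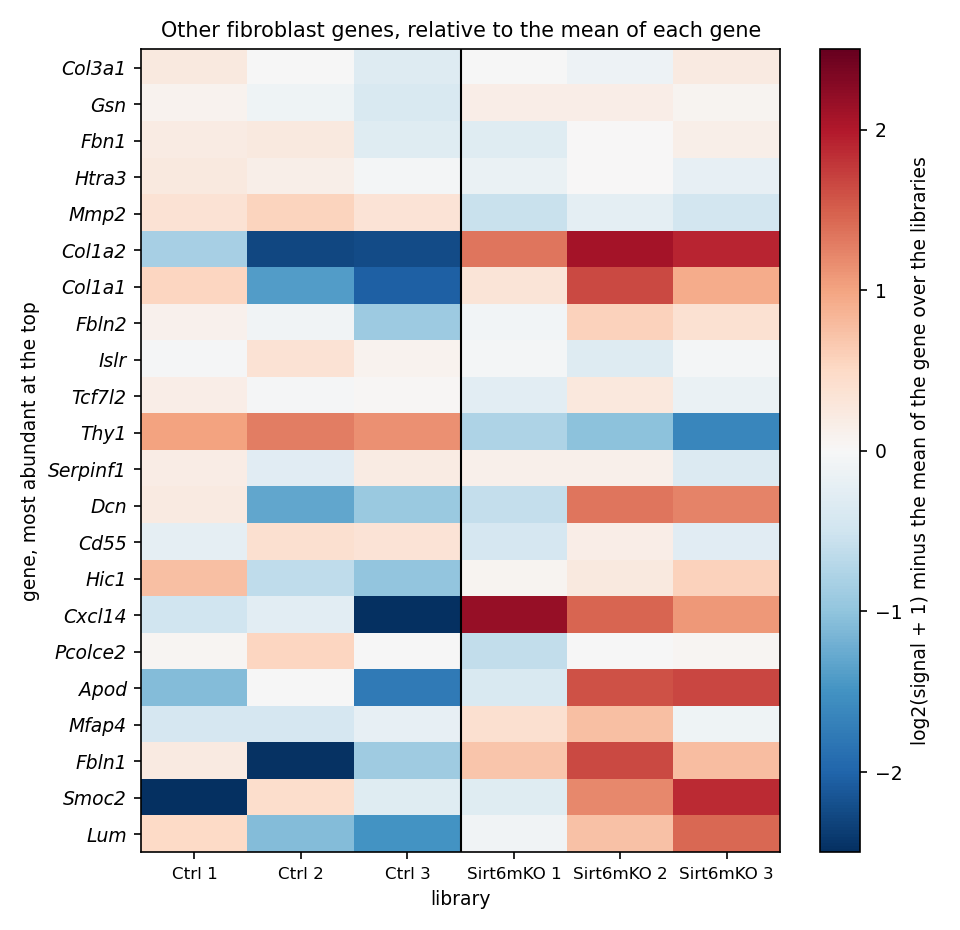
The 22 tested genes of the fibroblast list in each library, as log2(signal + 1) minus the mean of the gene over the 6 libraries; red is above and blue below that mean, the scale is clipped at both ends, and the most abundant genes are at the top. Col1a2 and Cxcl14 are red in all Sirt6mKO libraries, Thy1 is blue in all 3, and the rows of Col3a1, Gsn and Fbn1 are pale.

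**Figure D4:**
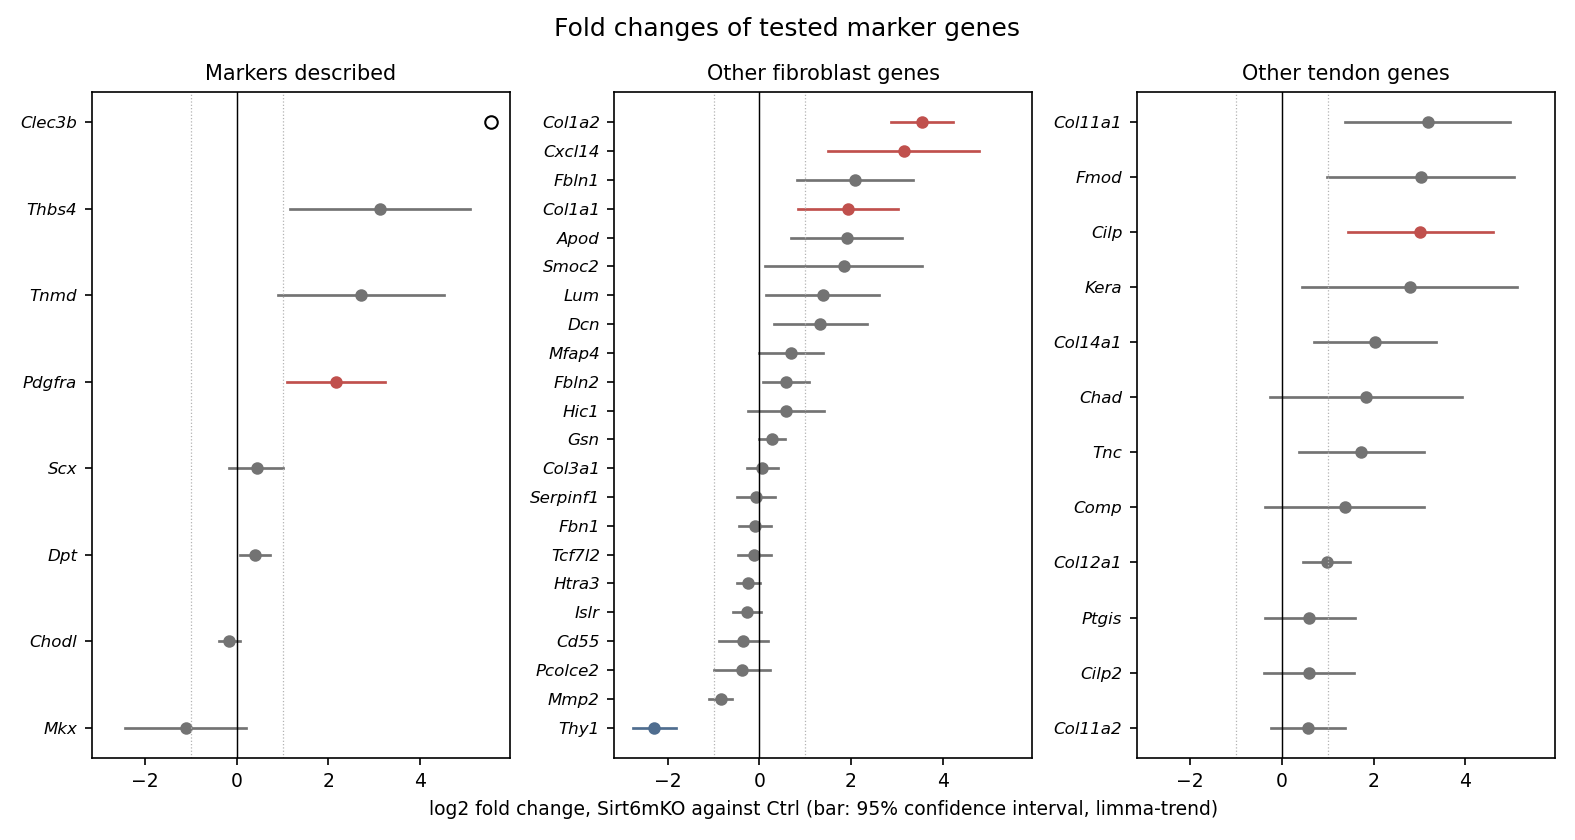
Log2 fold change of Sirt6mKO against Ctrl for tested genes, with the 95% confidence interval of limma-trend as a bar; red and blue are genes called higher and lower, grey is not called, and dotted lines mark a 2-fold change. Clec3b, chosen on this contrast, is an open circle without a bar. Tnmd, Smoc2 and 5 genes of the tendon list (Kera, Comp, Chad, Col11a1 and Col14a1) were tested only because of their Sirt6mKO values.

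Markers of other cells gave these values beside the results above. Over all tested genes, 1.57% were called higher and 1.02% lower, so that 0 calls in a short list says little. Of 8 myofiber genes tested, Acta1, skeletal actin, was called higher (548, 656 and 143 in Sirt6mKO, 118, 131 and 93 in Ctrl, log2 fold change 1.71 ± 0.42 SE, limma-trend, adjusted p = 0.035), a call lost without Sirt6mKO replicate 1 or 2 or any control (0.074 to 0.22) and held without Sirt6mKO replicate 3 (2.40, adjusted p = 4.3e-05). Ttn, titin, passed the adjusted p alone (0.90 ± 0.17, adjusted p = 0.010), and Myh4, a fast myosin, had 252, 274 and 47 against 46, 45 and 36. Summed, the myofiber list read 2019, 2300 and 970 against 763, 630 and 815. It was high in Sirt6mKO replicates 1 and 2, whereas Thbs4 was high in 2 and 3 and Clec3b in 1 and 3. Of 9 MuSC genes, 0 were called higher and Chrdl2, a secreted BMP antagonist, lower (-1.10 ± 0.16, adjusted p = 0.0021, and -0.92 without Sirt6mKO replicate 3). Pax7 passed the adjusted p alone, downward, with 1841, 2307 and 1810 in Sirt6mKO and 4066, 3449 and 3150 in Ctrl (-0.84 ± 0.13, adjusted p = 0.0041), and so did Cd34, upward (0.60 ± 0.14, adjusted p = 0.031). Of the tested genes of the endothelial (3), mural (7), immune (2) and Schwann cell (3) lists, 0 passed both thresholds by limma-trend. The most abundant were Tek (349 to 562, an endothelial receptor gene that MuSCs also express), Pecam1 (4 to 29) and Esam (4 to 12) of the endothelial list, Notch3 (2112 to 4873), Acta2 (410 to 590) and Cspg4 (29 to 60) of the mural list and Cd68 (34 to 70), Cd79a (5 to 11) and Lyz2 (0 to 7) of the immune list. The defining endothelial genes Cdh5, Kdr, Flt1 and Cldn5 did not exceed 7 in any library. The sum of the mural list was 4365 to 5460 in Sirt6mKO and 2820 to 3882 in Ctrl, most of it Notch3, which MuSCs express. The part of any of these cells in the values of Clec3b, Pdgfra, Thbs4 or Tnmd was not tested.

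The closest relatives of the markers were measured as a fixed list of 18 genes. Of these, 10 were tested and 0 passed both thresholds by limma-trend, against 1.57% (higher) and 1.02% (lower) of all tested genes. Among the thrombospondins, Thbs1 had signals of 37, 125 and 90 in Sirt6mKO and 47, 55 and 65 in Ctrl, Thbs2 had 688, 817 and 784 against 669, 1192 and 690, and Thbs3 had 71, 70 and 56 against 43, 34 and 29. Thbs3 passed the adjusted p alone (0.89 ± 0.21, adjusted p = 0.033). Pdgfrl, related to the receptors in sequence, had 212, 200 and 192 against 264, 222 and 204. Layn, a relative of Chodl, had 1, 10 and 7 against 5, 2 and 5, and Mfap2, the sister gene of Mfap5, 5, 10 and 3 against 2, 1 and 2. Among the relatives of Pi16, Crispld2 had 174, 142 and 240 against 184, 77 and 79, and Pi15 and Crispld1 stayed at 3 or less.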

How the data were processed

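RNA-seq of 3 Sirt6mKO and 3 Ctrl samples was used. For the libraries, the labels name 75-base single-end reads, RiboGone depletion and a SMARTer stranded kit, whereas the methods name RiboMinus and an Ion Total RNA-Seq kit. The authors aligned reads with STAR to GRCm38 (mm10), counted them per gene with featureCounts and used DESeq2. Versions in the submitters' processing notes are STAR 2.7.10a, featureCounts 2.0.2 and DESeq2 1.30.1. The statistics section of the study gives fewer replicates for RNA-seq than the deposit.

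The deposited signal carries no unit. It is reads divided by a size factor and rounded. The factors (0.558 to 1.372) were recovered from how often each value up to 120 occurred in a library. As these are not counts, no count model was used. Values of log2(signal + 1) of the 14227 genes with a mean of at least 5 were fitted with limma-trend (limma 3.58.1, R 4.3.3), without covariates or further scaling, and p-values were adjusted over all tested genes. Calls required 0.05 or less after adjustment together with 2-fold. With 3 against 3, an exact permutation test cannot go below p = 0.1, so none was used. A gene at or under 3 reads in every control has its fold given against that floor, averaged over the libraries. The fit was tested on simulated data. Positions came from GENCODE, in which 99.7% of identifiers were found, and promoters from RefSeq (GRCm38.p6). All columns of values were used. Python 3.11.15 with numpy 2.4.6, pandas 2.3.3 and matplotlib 3.10.9 handled tables and plots.

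Markers, lists and tests were chosen with earlier results of these data known. Named are all 10 markers, list genes past both thresholds, the 3 most abundant of a list, and for each tested marker the genes of highest correlation. Other list genes and relatives were named after their values were seen. Values of single Schwann cell genes are not reported here.

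Alternatives were median-ratio, upper quartile and library-total scaling, other filters and pseudocounts, robust empirical Bayes, voom on recovered reads, a replicate block, an adjusted p alone, and leaving out each library.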

Additional observations from a re-analysis of the deposited data

How the results depend on the processing

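The markers called higher, Clec3b included, numbered 1 without the filter on low values and 1 to 3 when single libraries were left out. The fibroblast genes called higher numbered 1 without the filter, with a pseudocount of 0.1 and with robust empirical Bayes, and 1 to 4 without single libraries. The tendon genes called higher numbered 2 with upper quartile scaling, library-total scaling, a mean of at least 1 and an adjusted p alone, 0 without the filter, with robust empirical Bayes and with voom, and 0 to 5 without single libraries. Here and below, calls of Tnmd, Col11a1 and Kera are no support, as these genes passed the filter only through Sirt6mKO. Over all genes, an adjusted p alone gave 376 higher and 267 lower, and leaving out libraries gave 88 to 294 higher and 81 to 151 lower. The log2 fold change of each tested marker kept its direction in every alternative that tested it. For Clec3b and Tnmd this is no support. The former was chosen on this contrast and the latter passed the filter only through Sirt6mKO. Uncalled genes near 0 did not all do so, among them Col3a1 (-0.09 to 0.20), Fbn1 (-0.27 to 0.03), Pdgfrb (-0.32 to 0.32) and Thbs2 (-0.25 to 0.16). Replicate numbers are shared by the groups. Same-numbered libraries deviated together with correlations of 0.02, 0.07 and 0.19, against -0.13 to 0.07 for different numbers. They were not treated as pairs in the main fit. With the replicate number as a block, 3 markers (Clec3b, Pdgfra and Thbs4) and 3 tendon genes were called. Over all genes that fit called 268 higher and 167 lower, against 223 and 145 in the main fit. The causes of these changes were not tested. The median log2 fold change of all genes was 0.00194, and -0.0157 with library-total scaling. Depth limits Pi16, Mfap5, Tnmd, Mkx and Pdgfra.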

Other observations

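Some genes outside the lists, chosen after their values were seen, were among the 20 with the largest spread between the Sirt6mKO libraries. Col2a1, the collagen of cartilage, had signals of 0, 22 and 9 in replicates 1, 2 and 3 of Sirt6mKO, against 0, 5 and 4 in Ctrl. Itgbl1, an integrin beta-like secreted protein, had 1, 26 and 7 against 0, 2 and 0. Both had their highest value in the library that was highest for Thbs4 and Fmod. Both also passed the filter only through their Sirt6mKO libraries, so that this shared order is no support. Hmcn1, a giant matrix protein of basement membranes, had another order, with 319, 371 and 11 against 181, 206 and 264, and the largest spread of all tested genes (SD of 2.80 on the log2 scale).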
